A study of Mus musculus with 3 samples.

Results

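A set of 9 genes of retinoic acid synthesis, binding, breakdown and response were followed through single nuclei of aortic valve structures from postnatal day 1 mice. The 9 genes, out of 36167 features in the deposited matrices, are Aldh1a1, Aldh1a2, Aldh1a3, Dhrs3, Crabp1, Crabp2, Stra6, Cyp26b1 and Rarb, taken from a list of gene names. All animals formed 1 group, the strain labelled B6.Cg-Scx<tm1.1(EGFP)Skom, in which the locus of Scx, a transcription factor of tendon and valve cells, carries EGFP. The labels do not give the zygosity. The tissue was collected as 3 pools of 22 to 24 aortic roots each, and nuclear RNA was read by the gene expression part of a 10x Genomics assay that also reads open chromatin, which is not analysed here.

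Retinoic acid is made from vitamin A in steps: retinol is oxidised to retinaldehyde, and retinaldehyde dehydrogenases of the Aldh1a family oxidise that to retinoic acid. The acid enters the nucleus, binds RAR and RXR receptors on DNA, and is cleared by Cyp26 hydroxylases, so the cells that make it and the cells that respond to it are often different. In the developing heart the epicardium, a mesothelium, is a known source through Aldh1a2, and retinoic acid acts on outflow tract and valve development.

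The pools held 21140 deposited nuclei and 96513814 unique molecular identifiers (UMIs, one per captured RNA molecule). Nuclei with at least 1000 UMIs and at most 5% mitochondrial UMIs numbered 14073, and 13182 remained after 891 likely doublets were left out (6473, 3098 and 3611 in pools 1, 2 and 3, with median UMI counts of 4283, 4756 and 3340). Pairs of pools shared 44 to 99 cell barcodes, at most 1.66% of the smaller pool. Clusters were named from marker genes, which gave 10 classes of 20 nuclei or more per pool, and a class name ends in "like" because no label assigns a nucleus to a cell type. One cluster of 292 nuclei, 203 of them from pool 3, had a median of 13560.5 UMIs and no passing marker and was left unnamed. Levels below are a gene's UMIs scaled by the UMI total of the class, as CPM, in each pool, and means carry the SD over 3 pools. The labels do not say whether the pools came from separate litters, so the tests speak only for these pools. The tests take out the difference between pools that all classes share. They measure how the differences between classes vary over these pools, with the spread estimated over all classes together.

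Rarb and Cyp26a1, a breakdown enzyme outside the 9 genes, were the only genes among 42 retinoid genes with a reference promoter whose start region held a direct repeat with a spacer of 5 (DR5), the spacing of the classical retinoic acid response element. Both are shown because their RNA levels differed between valve interstitial-like clusters in opposite directions, as described below. The sequences are from RefSeq (GRCm38.p6), 5′ to 3′ on the gene's strand, and capitals mark the half-sites. The Rarb stretch is chr14:16575477-16575596 on the minus strand, and the Cyp26a1 stretch is chr19:37697688-37697807 on the plus strand.
Rarb: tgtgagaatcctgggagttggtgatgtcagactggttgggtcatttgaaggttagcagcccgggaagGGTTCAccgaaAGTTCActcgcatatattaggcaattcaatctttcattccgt
Cyp26a1: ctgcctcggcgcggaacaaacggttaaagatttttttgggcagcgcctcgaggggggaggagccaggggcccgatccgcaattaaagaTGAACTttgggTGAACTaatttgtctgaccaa

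The repeat in Rarb runs from 53 to 37 bases before the start, and the one in Cyp26a1 lies on the opposite strand from 32 to 16 bases before it. The half-site searched was AGGTCA or one of its variants, which are AGTTCA along with GGGTCA as well as GGTTCA, on both strands, in windows from 250 bases before to 50 bases after each start. A repeat with this spacing was present in 32 of 32851 promoter windows (0.0974%). Of the 9 genes 7 had a promoter in the table, and 6 of these 7 had no such repeat in the window, which says nothing of sites elsewhere. The files use the build GRCm39, so these coordinates do not apply to them.

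Aldh1a1, which oxidises retinaldehyde to retinoic acid, was highest in valve interstitial-like and mesothelial-like nuclei. In valve interstitial-like nuclei it stood at 235, 198 and 276 CPM in pools 1, 2 and 3. In mesothelial-like nuclei it stood at 237, 158 and 141 CPM. The pools of these classes overlapped, and the class next in order, the fibroblast-like nuclei, lay below both in every pool at 72.7, 61.2 and 54.2 CPM. The means were 236 ± 39.2, 179 ± 50.9 and 62.7 ± 9.31 CPM, and each of the other 7 classes had a mean of at most 20.7 CPM. Of the 3210 Aldh1a1 UMIs of the analysed nuclei, 42.0% lay in valve interstitial-like nuclei, which were 11.3% of the nuclei, and 26.4% in mesothelial-like nuclei, which were 2.79%.

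The Aldh1a1 excess of valve interstitial-like over fibroblast-like nuclei was 1.95 on the log2 scale (SE 0.186, adjusted p = 3.7e-11 by edgeR's quasi-likelihood test). Mesothelial-like nuclei exceeded fibroblast-like nuclei by 1.82 (SE 0.192, adjusted p = 9.1e-11). Against the mean of the other classes Aldh1a1 was higher by 3.88 in valve interstitial-like nuclei (adjusted p = 6.7e-24) and lower in cardiomyocyte-like and endothelial-like nuclei, where the log2 differences were -3.02 and -2.43. Aldh1a7, a close paralogue, had 91 UMIs in all and was also highest in valve interstitial-like nuclei, at 6.94 ± 2.05 CPM. In a comparison of reference transcripts (GENCODE, GRCm38), 17 of 2269 windows of 90 bases in Aldh1a1 (0.749%) occurred exactly in Aldh1a7, and none of the last 500 did. Reads from the shared windows could not be told apart by sequence, and how such reads were counted was not tested. Introns were not compared.

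Aldh1a2, the main retinoic acid synthesis enzyme of the embryo, had another distribution. Mesothelial-like nuclei held 342, 339 and 259 CPM. Fibroblast-like nuclei held 73.1, 76.6 and 82.5 CPM. Valve interstitial-like nuclei held 2.14, 1.82 and 0.761 CPM. No pool of one class reached the range of another, and 66.2% of the 2071 Aldh1a2 UMIs came from mesothelial-like nuclei, which made up 2.79% of the nuclei. Mesothelial-like nuclei exceeded fibroblast-like nuclei by a log2 difference of 2.29 (SE 0.173, adjusted p = 3.8e-14). The valve interstitial-like level was lower than the fibroblast-like level, with a log2 difference of -5.40 (SE 0.336, adjusted p = 1.6e-15) and lower than the endothelial-like level, with -2.03 (SE 0.458, adjusted p = 4.0e-04). Lymphatic endothelial-like and erythroid-like nuclei had 0 Aldh1a2 UMIs.

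**Figure D1:**
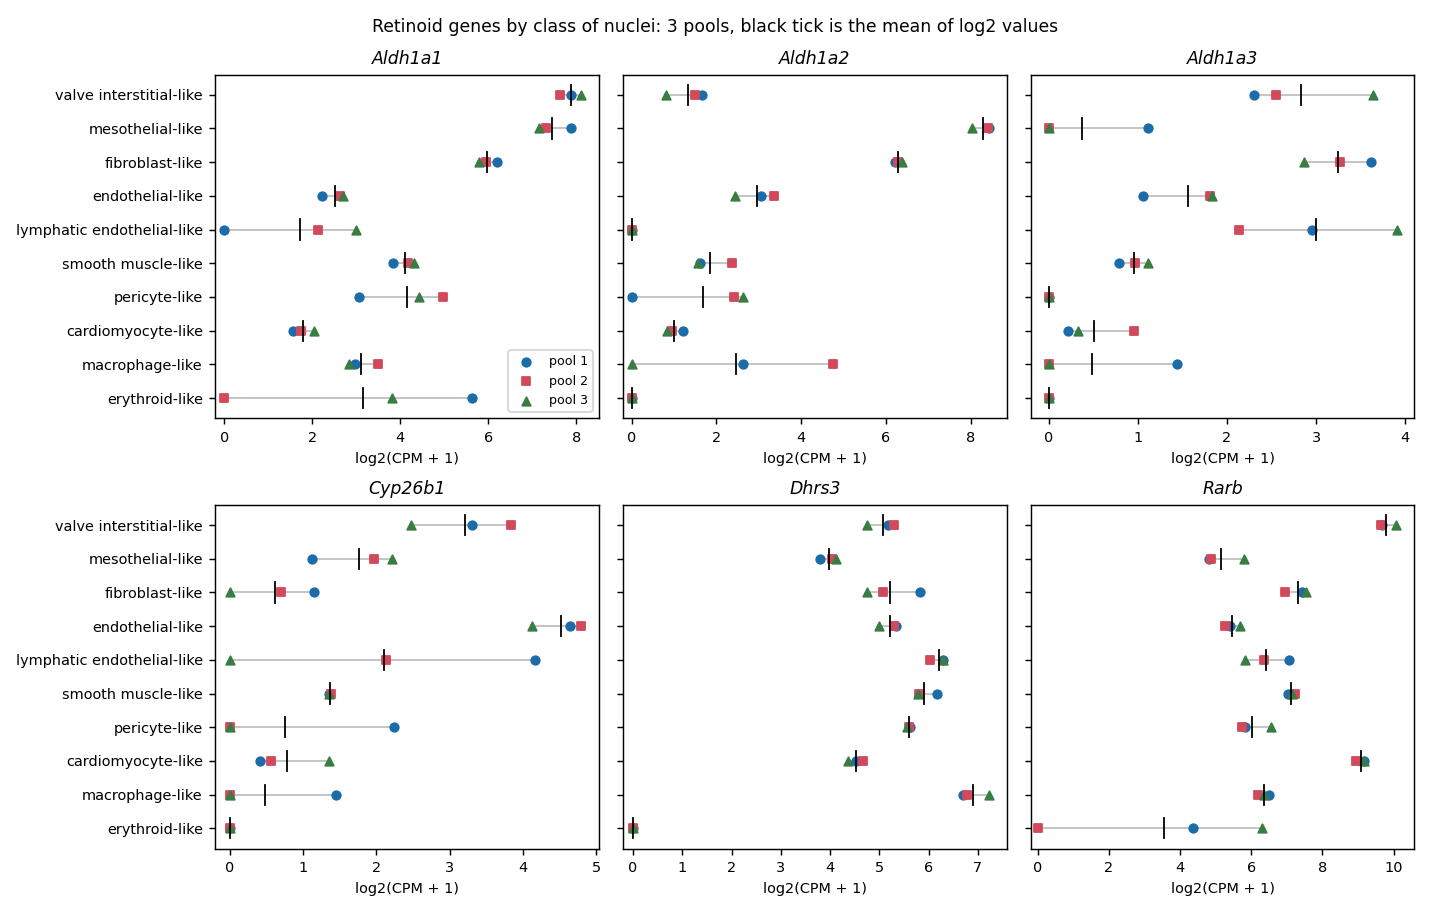
Level of the 6 genes that passed the filter on low counts, as log2(CPM + 1) on the horizontal axis, in 10 classes of nuclei. Points are the 3 pools, grey lines their range and black ticks the mean of the log2 values. Aldh1a1 peaks in valve interstitial-like and mesothelial-like nuclei, Aldh1a2 in mesothelial-like nuclei, Cyp26b1 in endothelial-like nuclei, Dhrs3 in macrophage-like nuclei and Rarb in valve interstitial-like nuclei.

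Aldh1a3, a further enzyme of the family, was sparse, with 157 UMIs in all. Its mean was 8.73 ± 2.48 CPM in fibroblast-like nuclei, 8.06 ± 5.42 in lymphatic endothelial-like nuclei (5 UMIs) and 6.73 ± 4.08 in valve interstitial-like nuclei. The pools of these classes overlapped. The untested melanocyte-like nuclei had 7 UMIs, at 24.4, 27.8 and 0 CPM. Endothelial-like nuclei stood at 1.09, 2.50 and 2.56 CPM against 3.92, 4.85 and 11.4 CPM in valve interstitial-like nuclei, a log2 difference of 1.67 (SE 0.467, adjusted p = 0.0040). Without pool 3 that difference was 1.37 with an adjusted p of 0.091. In mesothelial-like nuclei 3 UMIs were found, all in pool 1.

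Dhrs3 reduces retinaldehyde back to retinol and is itself a retinoic acid response gene. It was highest in macrophage-like nuclei, at 103, 109 and 149 CPM, above every pool of the other 9 classes. The 56 adipocyte-like nuclei, outside the tests with 10 and 1 nuclei in pools 2 and 3, had a higher mean from 60 UMIs, at 201, 88.0 and 268 CPM. At a clustering resolution of 0.5 the macrophage-like class took in 239 nuclei of the unnamed cluster, and its Dhrs3 level was 61.4 ± 17.3 CPM, below the lymphatic endothelial-like mean. Lymphatic endothelial-like nuclei followed with 73.2 ± 7.53 CPM, smooth muscle-like nuclei with 59.7 ± 9.39, pericyte-like nuclei with 47.3 ± 0.981 and fibroblast-like nuclei with 38.2 ± 15.7. Endothelial-like and valve interstitial-like nuclei, at 36.3 ± 4.87 and 33.1 ± 6.46 CPM, overlapped with each other. Mesothelial-like nuclei were low at 12.8, 15.5 and 16.3 CPM, and the 74 erythroid-like nuclei had 0 UMIs. Mesothelial-like nuclei had less Dhrs3 than fibroblast-like nuclei, with a log2 difference of -1.23 (SE 0.238, adjusted p = 3.3e-05), which was -0.71 with an adjusted p of 0.096 without pool 1.

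Since Dhrs3 was at 0 in erythroid-like nuclei, a fold against the mean of all other classes depends on the prior count. In a fit without that class, chosen after seeing the data, the log2 difference of Dhrs3 was 1.46 in macrophage-like nuclei (SE 0.173, adjusted p = 2.7e-08), and it was higher in smooth muscle-like nuclei by 0.63 (SE 0.114, adjusted p = 4.6e-05). In the same fit it was lower in valve interstitial-like nuclei, with a log2 difference of -0.38 (adjusted p = 0.040), and in cardiomyocyte-like nuclei, at -0.59 (adjusted p = 2.7e-04). In that fit, of 15048 genes, the share of all genes called was 28.1% for macrophage-like, 32.1% for smooth muscle-like, 33.6% for valve interstitial-like, 64.6% for cardiomyocyte-like, 56.1% for mesothelial-like and 21.7% for lymphatic endothelial-like nuclei. Dhrs3 was also lower in mesothelial-like nuclei (-1.62) and higher in lymphatic endothelial-like nuclei (0.76). It was not called in endothelial-like, fibroblast-like or pericyte-like nuclei, beside 36.2%, 31.3% and 11.8% of all genes. With the erythroid-like class the valve interstitial-like and cardiomyocyte-like values were 0.65 and 0.42, and neither was called. Aldh1a2, Aldh1a3 and Cyp26b1 also had classes at 0, so their folds against the mean of the other classes depend on the prior count and are not given as results.

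Crabp1 and Crabp2, which bind retinoic acid in the cytoplasm, and Stra6, which takes up retinol from its carrier, were sparse. The analysed nuclei held 21 Crabp1 UMIs, 83 Crabp2 UMIs and 28 Stra6 UMIs, and all 3 genes were under the filter on low counts, so they were not tested. Of the Crabp1 UMIs, 6 lay in valve interstitial-like nuclei, all in the cluster led by Abi3bp and Ctnna2. Of the Crabp2 UMIs, 39 lay in endothelial-like nuclei, 28 of these in the cluster led by Kcnc2 and Fam155a, where the level was 3.24, 26.6 and 3.54 CPM. Pool 2 carried that level. No class had more than 6 Stra6 UMIs.

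Cyp26b1 hydroxylates retinoic acid for removal. Its level was highest in endothelial-like nuclei, at 24.1, 26.9 and 16.5 CPM, and next in valve interstitial-like nuclei, at 8.92, 13.3 and 4.57 CPM. The ranges did not overlap, and the log2 difference between valve interstitial-like and endothelial-like nuclei was -1.32 (SE 0.292, adjusted p = 2.9e-04). Fibroblast-like nuclei held 4 Cyp26b1 UMIs in all and lay below valve interstitial-like nuclei by a log2 difference of 3.57 (SE 0.614, adjusted p = 1.6e-05). Endothelial-like nuclei carried 73.1% of the 465 Cyp26b1 UMIs and made up 20.7% of the nuclei. Lymphatic endothelial-like nuclei had 6 UMIs, and their pools ranged from 0 to 16.9 CPM.

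Rarb encodes retinoic acid receptor beta, both a receptor and a classical target of retinoic acid. In valve interstitial-like nuclei it stood at 809, 807 and 1082 CPM. In cardiomyocyte-like nuclei it stood at 569.6, 492 and 569.7 CPM. These classes did not overlap with each other or with any of the other tested classes, whose highest pool was 184 CPM in fibroblast-like nuclei. Valve interstitial-like nuclei exceeded the fibroblast-like level by a log2 difference of 2.55 (SE 0.175, adjusted p = 3.6e-15) and the endothelial-like level by 4.40 (SE 0.189, adjusted p = 3.9e-22). Against the mean of the other classes Rarb was higher by 3.16 in valve interstitial-like and by 2.80 in cardiomyocyte-like nuclei (adjusted p = 3.3e-25 and 5.2e-24). With the clusters led by Lrrc4c and by Pcdh17 left unnamed, because their 10 leading genes held 1 marker of another class and 0 of their own, the cardiomyocyte-like difference was 2.14 (adjusted p = 6.7e-19). It was lower in mesothelial-like and endothelial-like nuclei, with log2 differences of -1.89 and -1.72.

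Mesothelial-like nuclei, with the highest Aldh1a2 level, had a Rarb level of 36.4 ± 15.5 CPM, whose pools overlapped those of endothelial-like, erythroid-like and pericyte-like nuclei at the low end of the 10 classes. Against fibroblast-like nuclei their Rarb level had a log2 difference of -1.996 (SE 0.223, adjusted p = 3.9e-10). Smooth muscle-like nuclei had 139 ± 9.30 CPM and pericyte-like nuclei 66.7 ± 22.4 CPM, a log2 difference of 1.22 (SE 0.281, adjusted p = 0.0020). That call was lost with doublets kept and at a clustering resolution of 0.5, where the differences were 0.58 and 0.19 (adjusted p = 0.15 and 0.59). Under these settings the pericyte-like name covered 595 and 1348 nuclei instead of 139. Among them were 418 and 1179 nuclei of the Clca3a2-led smooth muscle-like cluster. The smooth muscle-like name covered 2547 and 2165 nuclei instead of 3970, and 615 and 627 nuclei of its Igfbp2-led cluster were named cardiomyocyte-like. Both settings therefore compare other groups of nuclei.

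The highest Rarb level of any named class was in 70 melanocyte-like nuclei, which were outside the tests because pools 2 and 3 gave 18 and 16 nuclei. They held 1866, 4742 and 2482 CPM, from 891 UMIs in all, and every pool lay above those of the 10 classes. Melanocytes, the pigment cells, are known residents of mouse heart valves. After each nucleus was thinned to 1000 UMIs, a Rarb UMI was present in 61.1% (Wilson 95% interval 44.9% to 75.2%), 88.9% (67.2% to 96.9%) and 68.8% (44.4% to 85.8%) of them in pools 1, 2 and 3.

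The share of nuclei with a UMI was also counted. At 1000 UMIs per nucleus an Aldh1a1 UMI was present in 17.9% ± 1.80 of valve interstitial-like and 14.5% ± 5.81 of mesothelial-like nuclei. The background classes were 0.259% for cardiomyocyte-like and 0.298% for macrophage-like nuclei. An Aldh1a2 UMI was present in 23.9% ± 3.30 of mesothelial-like and 5.95% ± 0.845 of fibroblast-like nuclei. In the background classes the Aldh1a2 share was 0.140% of cardiomyocyte-like nuclei and 0 of 247 macrophage-like nuclei, which allows up to 1.21%. Before thinning, 5 of these 247 nuclei held 13 Aldh1a2 UMIs, at 5.16, 25.8 and 0 CPM in pools 1, 2 and 3. For valve interstitial-like nuclei it was 1 of 1485 nuclei (0.0506% as the mean of pools), not above background.

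Median depths before thinning were 3572 UMIs in valve interstitial-like, 9842.5 in mesothelial-like, 3899 in fibroblast-like, 5377 in cardiomyocyte-like and 3195 in macrophage-like nuclei. Without thinning, the Aldh1a1 share was 39.5% in valve interstitial-like and 55.05% in mesothelial-like nuclei, the reverse order, against 1.27% in cardiomyocyte-like and 2.64% in macrophage-like nuclei. The unthinned Aldh1a2 share was 71.99% in mesothelial-like, 13.8% in fibroblast-like, 0.604% in cardiomyocyte-like and 1.79% in macrophage-like nuclei. A Rarb UMI was present after thinning in 36.7% ± 3.97 of valve interstitial-like, 32.8% ± 0.683 of cardiomyocyte-like and 6.48% ± 1.78 of macrophage-like nuclei, and unthinned in 56.1%, 71.3% and 16.5%. A Cyp26b1 UMI was present in 1.98% ± 0.630 of endothelial-like nuclei (median depth 4452 UMIs) and in 0.0432% of cardiomyocyte-like nuclei. Intervals and limits cover counting error only.

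**Figure D2:**
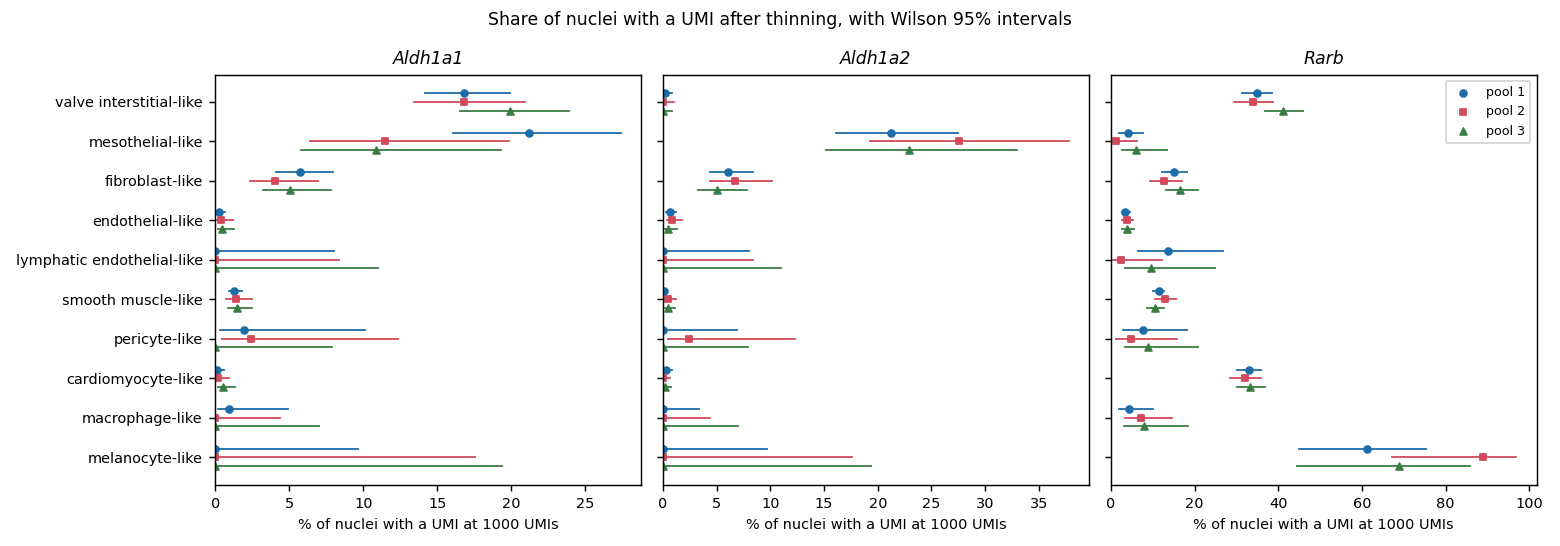
Percent of nuclei with at least 1 UMI of Aldh1a1, Aldh1a2 or Rarb after thinning to 1000 UMIs (horizontal axis), by class and pool, with Wilson 95% intervals as lines. Aldh1a2 shares in mesothelial-like nuclei lie from 21.2% to 27.6%, and Rarb shares in melanocyte-like nuclei from 61.1% to 88.9%.

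The counts of called genes are set against the share of all 14207 tested genes called in the same comparison. Of the 9 genes 6 could be tested, and a gene that passed the filter through a class where it is high had to differ there, so the counts describe and support nothing. In valve interstitial-like nuclei 4 of 9 were called, all higher, beside 29.3% of all genes. In mesothelial-like nuclei 3 were called (46.2% of all genes), as in fibroblast-like nuclei (26.8%), endothelial-like nuclei (30.0%) and macrophage-like nuclei (25.5%). In cardiomyocyte-like nuclei 2 were called (51.4%), and 2 in lymphatic endothelial-like nuclei (18.8%). In smooth muscle-like nuclei 1 was called (27.1%), in pericyte-like nuclei 1 (11.2%) and in erythroid-like nuclei 0 (7.96%; 1 at an unadjusted p under 0.05, by edgeR). Class against class, valve interstitial-like nuclei had 4 called against the fibroblast-like class (17.7%) and 5 against the endothelial-like class (36.8%). There were 5 between mesothelial-like and fibroblast-like nuclei (53.0%) and 1 between smooth muscle-like and pericyte-like nuclei (9.07%). The median log2 difference of all genes against the mean of the other classes was 0.11 to 0.31 in 9 classes and -1.48 in the erythroid-like class.

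Valve interstitial-like nuclei formed 2 clusters, one of 936 nuclei led by Rmst, Pcdh15, Rnf43 and Adamts19 and one of 549 nuclei led by Abi3bp, Ctnna2, Col11a1 and Matn4. The 9 genes and the lists of other retinoid genes were kept out of the clustering. Of the 9 genes 4 were called between these clusters, 2 in each direction, beside 8.81% of 12972 tested genes, and 5 could be tested.

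Rarb stood at 1069, 1111 and 1367 CPM in the Rmst-led cluster and at 226, 182 and 238 CPM in the Abi3bp-led cluster. The ranges lay far apart, and the log2 difference was 2.50 (SE 0.166, adjusted p = 3.8e-19). Aldh1a1 was higher in the Rmst-led cluster in each pool, at 263, 224 and 302 CPM against 172, 145 and 199 CPM, a log2 difference of 0.67 (SE 0.194, adjusted p = 0.014). That call was lost without any 1 pool (adjusted p = 0.063, 0.076 and 0.095) and by DESeq2 (0.31). Aldh1a3 had 32 of its 34 valve interstitial-like UMIs in the Rmst-led cluster and was not tested there.

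Cyp26b1, Dhrs3 and Cyp26a1 were lower in the Rmst-led cluster. Cyp26b1 stood at 19.7, 33.4 and 12.1 CPM in the Abi3bp-led cluster and at 4.13, 3.61 and 2.04 CPM in the Rmst-led cluster. The log2 difference of the Rmst-led cluster was -2.58 (SE 0.554, adjusted p = 4.5e-04). Dhrs3 stood at 87.9, 77.9 and 42.2 CPM in the Abi3bp-led cluster against a mean of 17.1 ± 4.55 CPM in the other, a log2 difference of -2.12 (SE 0.281, adjusted p = 2.1e-08). Cyp26a1, the paralogue of Cyp26b1 whose promoter is printed above, had 103 of its 172 UMIs in valve interstitial-like nuclei, at 38.8 ± 13.2 CPM in the Abi3bp-led and 7.12 ± 5.30 CPM in the Rmst-led cluster. Its log2 difference was -2.46 (SE 0.434, adjusted p = 2.3e-05), which was -2.14 with an adjusted p of 0.051 without pool 1. It was the 1 gene called of the 11 tested genes of other retinoid metabolism and transport, whose median log2 difference was -0.0056 against 0.013 for all genes. For Cyp26b1, Dhrs3 and Cyp26a1 no pool of one cluster reached the range of the other.

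Of the genes with the printed repeat, Rarb was higher and Cyp26a1 lower in the Rmst-led cluster. The median depth was 3978.5 UMIs in the Rmst-led and 2896 in the Abi3bp-led cluster. The summed level of 9 cardiomyocyte markers was 424 to 1066 CPM in the Rmst-led and 925 to 1616 CPM in the Abi3bp-led cluster, against 42438 to 45473 CPM in the largest cardiomyocyte-like cluster, and all 9 markers had UMIs in both. The valve interstitial markers summed to 4166, 3542 and 4376 CPM in the Rmst-led and 1389, 1156 and 913 CPM in the Abi3bp-led cluster, and the fibroblast markers to 5522, 6790 and 3814 CPM against 4766, 5154 and 3077 CPM. The part of these markers in the differences between the clusters was not tested.

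**Figure D3:**
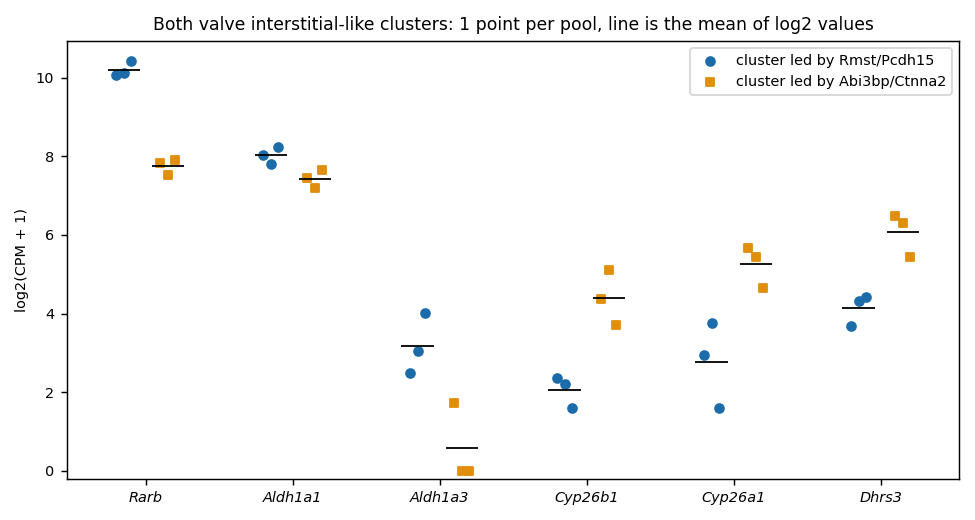
Level of 6 genes as log2(CPM + 1) (vertical axis) in the 2 valve interstitial-like clusters, with 1 point per pool and lines at the mean of the log2 values. Points of Rarb, Aldh1a1 and Aldh1a3 (the last not tested) lie higher in the Rmst-led cluster, and those of Cyp26b1, Cyp26a1 and Dhrs3 in the Abi3bp-led cluster.

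Among endothelial-like clusters, Aldh1a2 and Cyp26b1 were highest in different ones. Aldh1a2 was concentrated in 252 nuclei led by Dlgap2 and Cntnap5a, which held 85 of the 107 endothelial-like Aldh1a2 UMIs at 65.4, 79.7 and 27.7 CPM. Every pool lay above those of the other 5 tested endothelial-like clusters, and the log2 difference was 5.09 (SE 0.348, adjusted p = 1.3e-19). In this cluster 3 of the 9 genes were called, beside 18.6% of all genes, and Rarb was lower, with a log2 difference of -1.14 (adjusted p = 0.0014). Cyp26b1 was higher by 1.12 (adjusted p = 0.036), a call lost without any 1 pool, by DESeq2 and without the pool block. The summed level of 8 mesothelial markers there was 6.64 to 32.7 CPM, against 5068 to 6092 CPM in mesothelial-like nuclei, and Bnc1 had no UMI. The summed level of 10 fibroblast markers was 1967 to 2217 CPM, against 1298 to 1657 CPM in the Kcnc2-led cluster and 402 to 1295 CPM in the other 4. All 10 had UMIs in the Dlgap2-led cluster, and their part in the Aldh1a2 level was not tested.

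Cyp26b1 was highest in the 426 nuclei led by Kcnc2, Fam155a, Wnt9b and Pthlh, at 84.2, 70.3 and 56.6 CPM. These nuclei matched the list of endocardial markers best, with 5 passing, and were counted as endothelial-like. The cluster held 194 of the 340 endothelial-like Cyp26b1 UMIs. The log2 difference from the other endothelial-like clusters was 2.79 (SE 0.267, adjusted p = 1.9e-13), and no pool of another tested cluster reached 40 CPM. Cyp26a1 was not called in any of the 6 clusters, with means of 2.03 to 2.68 CPM. Of the 9 genes 2 were called there, beside 18.7% of all genes. The other was Dhrs3, with a log2 difference of -0.79 (adjusted p = 0.014), a call that was lost without pool 2 (-0.54, adjusted p = 0.29). Dhrs3 and Rarb were both higher in the cluster led by Pcdh17 and Aplnr, where 2 of the 9 genes were called beside 23.7% of all genes, with log2 differences of 1.04 and 0.85 (adjusted p = 3.5e-04 and 0.0013). The summed cardiomyocyte markers were 1906 to 3470 CPM in that cluster and 423 to 2448 CPM in the other 5. The mesothelial markers summed to 123 to 160 CPM, with Upk3b at 0, against 6.64 to 101 CPM. Of 8 adipocyte markers 4 had UMIs there, Plin1, Plin4, Ucp1 and Lep were at 0, and the sum was 2580 to 3601 CPM against 35.6 to 445 CPM. Fabp4, which is on the adipocyte list, was among the leading genes of this cluster, in which 9 endothelial markers passed the naming rule. The part of the cardiomyocyte, mesothelial and adipocyte markers in the Dhrs3 and Rarb differences was not tested. In the Mannr-led cluster only Cyp26b1 was called, lower (16.7% of all genes), in the Grid1-led cluster only Rarb, lower (21.8%), and in the Rtl4-led cluster none (16.6%; 1 at an unadjusted p under 0.05, by edgeR).

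Fibroblast-like nuclei divided by Aldh1a2. The 733 nuclei led by Abca8a held 114, 116 and 130 CPM. The 293 nuclei led by Tmeff2 and Fgf10 held 10.0, 3.58 and 4.44 CPM. Another cluster of 187 nuclei, led by genes of dividing cells and with 0 of the 9 genes called (16.4%; also 0 at an unadjusted p under 0.05, by edgeR), lay between them at 35.1 ± 6.18 CPM. The log2 difference from the other fibroblast-like clusters was 2.90 for the first (SE 0.265, adjusted p = 2.0e-12) and -3.12 for the second (SE 0.427, adjusted p = 5.0e-08). In each of these clusters, Aldh1a2 was the only one of the 9 genes called, beside 7.60% and 16.8% of all genes. The summed level of the 8 mesothelial markers was 25.8 to 33.3 CPM in the Abca8a-led and 48.7 to 60.8 CPM in the Tmeff2-led cluster, and their part in the Aldh1a2 difference was not tested.

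Rarb varied among cardiomyocyte-like nuclei. It stood at 1412, 1195 and 1399.97 CPM in 510 nuclei led by Lrrc4c and Erc2, at 390, 364 and 338 CPM in the largest cluster, of 1593 nuclei, and at 188 ± 13.9 CPM in 198 nuclei led by Ryr3 and Cpne5. No pools overlapped, and the log2 difference from the other cardiomyocyte-like clusters was 2.38 for the Lrrc4c-led cluster (SE 0.130, adjusted p = 3.1e-24) and -2.08 for the Ryr3-led cluster (SE 0.163, adjusted p = 2.7e-17). Of 7 neuron markers 3 had UMIs in the Lrrc4c-led cluster, Dbh, Prph and Chrna3 were among those at 0, and the sum was 90.4 to 152 CPM against 14.98 to 28.3 CPM in the other 2. Their part in the Rarb difference was not tested. Dhrs3 differed in the same directions, by 1.55 and -1.98 (adjusted p = 1.6e-04 and 5.3e-04). Aldh1a1 was higher in the Ryr3-led cluster, by 2.63 (SE 0.641, adjusted p = 0.0012), at 13.7 ± 5.22 CPM. The 9 valve interstitial markers summed to 389.6 to 662 CPM there, with Rmst at 0, and to 157 to 257 CPM in the other 2 clusters. The fibroblast markers summed to 1913, 2123 and 1705 CPM there, against 1081 to 1706 CPM, and the mesothelial markers to 19.97, 42.5 and 11.2 CPM, with Upk3b at 0, against 2.23 to 16.1 CPM. In each pool all 3 sums were higher than in the other 2 clusters, and their part in the Aldh1a1 difference was not tested. In the Lrrc4c-led cluster 2 of the 9 genes were called (9.30% of all genes), in the Ryr3-led cluster 3 (22.0%) and in the largest cluster 1 (14.6%), Aldh1a1.

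Over the 4 smooth muscle-like clusters 5 differences were called. In the cluster led by Igfbp2 and Cox8b, with 48 nuclei in pool 3, Aldh1a1, Aldh1a2 and Rarb were called higher, beside 49.5% of all genes, with log2 differences of 0.86, 2.13 and 0.38. This cluster also had summed cardiomyocyte markers of 7794 to 24189 CPM, against 899.8 to 1420 CPM in the other 3, and summed mesothelial markers of 44.9 to 69.6 CPM, against 3.69 to 15.8 CPM. Its valve interstitial markers summed to 205 to 364 CPM, against 42.5 to 149.6 CPM, and its fibroblast markers to 4215, 3633 and 1673 CPM in pools 1, 2 and 3, against 784 to 2431 CPM. All markers of these 4 lists had UMIs there, and their part in the 3 differences was not tested. At resolution 0.5, 627 of its 757 nuclei fell in the cardiomyocyte-like class, as did 615 with doublets kept. At a limit of 10% mitochondrial UMIs, 178 fell there, 298 in the fibroblast-like and 179 in the smooth muscle-like class. Its leading genes held the smooth muscle markers Acta2 and Tagln, and also Mb and Myl3, which were among the leading genes of a cardiomyocyte-like cluster of 74 nuclei. The smooth muscle-like class values of the main setting include its nuclei. Aldh1a1 was called higher in the Clca3a2-led cluster (21.2 ± 6.19 CPM, 18.4% of all genes) and lower in the Ptprz1-led cluster (6.62 ± 3.45 CPM, 24.4%). The fibroblast markers summed to 1699, 2431 and 1720 CPM in the Clca3a2-led and 784, 864 and 795 CPM in the Ptprz1-led cluster, and the valve interstitial markers to 129.5, 149.6 and 110.1 CPM against 58.3, 76.9 and 42.5 CPM. Their part in the Aldh1a1 differences was not tested. In the D030068K23Rik-led cluster 0 of the 9 genes were called (19.3%), and 0 at an unadjusted p under 0.05, by edgeR.

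**Figure D4:**
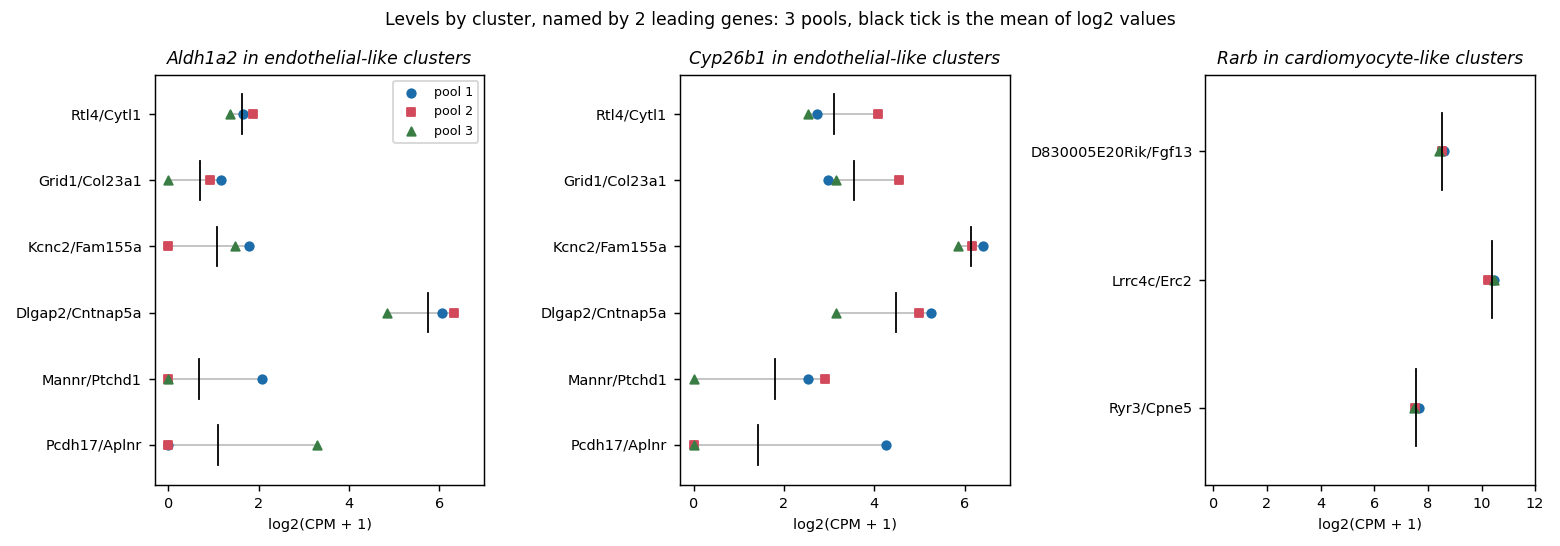
Levels of Aldh1a2 and Cyp26b1 in 6 endothelial-like clusters and of Rarb in 3 cardiomyocyte-like clusters, as log2(CPM + 1) on the horizontal axis. Points are the 3 pools, grey lines their range and black ticks the mean of the log2 values, and clusters are named by 2 leading genes. Aldh1a2 peaks in the Dlgap2-led cluster, Cyp26b1 in the Kcnc2-led cluster and Rarb in the Lrrc4c-led cluster.

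Within mesothelial-like nuclei, those with and without an Aldh1a2 UMI were matched by depth, in 51, 14 and 35 pairs. Median depths were 7932 and 7925 UMIs in pool 1 and 7689 and 7665 in pool 2, but 6303 and 4551 in pool 3. Aldh1a1 was the one other gene of the 9 that could be tested, and its log2 difference was 0.66 (SE 0.278) with an adjusted p of 0.76 by edgeR, while its unadjusted p passed 0.05. In this comparison 0 of the 9 genes were called, and 0.0727% of 4124 genes. In fibroblast-like nuclei, with 78, 47 and 41 pairs, Rarb and Aldh1a1 could be tested, and their log2 differences were -0.23 (SE 0.205) and -0.16 (SE 0.281). There 0 of the 9 genes were called (adjusted p = 0.84 and 0.95, and 0 at an unadjusted p under 0.05, by edgeR), and 0.293% of 5800 genes.

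The other retinoid genes were counted from lists, with the median log2 difference beside that of all genes. Of 22 other metabolism and transport genes, 11 could be tested. In mesothelial-like against fibroblast-like nuclei 6 were higher and none lower by edgeR, beside 53.0% of all genes called in either direction, with a median of 1.03 against -0.01 for all genes. They included Fabp5, a fatty acid and retinoic acid binding protein (503 ± 146 CPM against 55.2 ± 20.1, log2 difference 3.48, adjusted p = 9.0e-19), and Dhrs4, a retinal reductase (83.7 ± 2.49 against 23.8 ± 1.03 CPM, 2.09, adjusted p = 1.2e-11). Between valve interstitial-like and endothelial-like nuclei 3 were lower and none higher (36.8% of all genes called), with a median of -0.15 against -0.04. Adh1, an alcohol dehydrogenase, stood at 1.56 ± 0.860 CPM in valve interstitial-like and 50.2 ± 9.90 CPM in endothelial-like nuclei (-4.96, adjusted p = 5.5e-14).

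Of 10 other receptors and cofactors, 9 could be tested. Against the mean of the other classes 3 were higher and none lower in valve interstitial-like nuclei (29.3% of all genes called), with a median of 0.13 against 0.23. Rarg, a further retinoic acid receptor, stood at 56.0, 64.3 and 47.9 CPM there, a log2 difference of 1.60 (SE 0.164, adjusted p = 9.9e-11), and was low in cardiomyocyte-like nuclei at 2.74 ± 1.56 CPM (-2.71, adjusted p = 1.8e-08). In cardiomyocyte-like nuclei Rarb was higher and Rarg lower than the mean of the other classes. Valve interstitial-like against fibroblast-like nuclei had 1 of the listed receptors and cofactors higher and 2 lower (17.7% of all genes called), with a median of -0.088 against 0.025. Against the mean of the other classes, fibroblast-like nuclei had 4 higher and 0 lower (26.8%). Smooth muscle-like and macrophage-like nuclei each had 3 higher and 0 lower (27.1% and 25.5%).

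Of 17 other reported retinoic acid response genes, 10 could be tested. In valve interstitial-like nuclei, where Rarb was highest of the tested classes, 4 were higher and 3 lower than the mean of the other classes (29.3% of all genes called), with a median of -0.12 against 0.23. The lower genes were Hoxa3, a homeobox gene, at 1.13 ± 0.340 CPM (-3.52, adjusted p = 2.5e-07), Tgm2 and Nr2f2. The higher genes included Nr2f1, a nuclear receptor, at 7.43 ± 1.42 CPM, for which no fold is given since it was at 0 in erythroid-like nuclei. Tgm2, a transglutaminase, was at 15.3, 10.9 and 8.37 CPM (-1.90, adjusted p = 0.0029) and Nr2f2, a nuclear receptor, at 16.4 ± 3.26 CPM (-1.90, adjusted p = 1.5e-09). Against fibroblast-like nuclei 0 were higher and 4 lower (17.7% of all genes called), with a median of -0.42 against 0.025, and the lower genes were Hoxa3, Hoxb4, Nr2f2 and Rarres2. In mesothelial-like against fibroblast-like nuclei 3 were higher and 3 lower (53.0% of all genes called), with a median of 0.19 against -0.01. Rarres2, which encodes the chemokine chemerin, stood at 1426, 1573 and 1087 CPM against a mean of 60.2 ± 25.3 CPM (4.81, adjusted p = 2.5e-24) and Tgm2 at 338 ± 21.6 against 18.5 ± 4.35 CPM (4.45, adjusted p = 6.5e-21). Nr2f1 was lower, at 0.583 ± 0.514 against 8.33 ± 1.39 CPM (-3.20, adjusted p = 1.8e-04), as was Hoxa3, at 2.98 ± 2.65 against 21.5 ± 6.07 CPM (-2.20, adjusted p = 3.3e-06). No pool of the other classes reached the mesothelial-like range of Rarres2 or Tgm2. Between the clusters of valve interstitial-like nuclei 1 of the 10 was called (8.81% of all genes), Meis2, with a log2 difference of -0.60 for the Rmst-led cluster (adjusted p = 0.015). In the Tmeff2-led fibroblast-like cluster, which had the least Aldh1a2 of its class, 7 of the 10 were higher and none lower (16.8% of all genes called), with a median of 1.06 against 0.03, among them Hoxa3 (3.41, adjusted p = 7.0e-12) and Rarres2 (1.44, adjusted p = 4.0e-06). The adipocyte markers summed to 111 to 312 CPM there, against 38.4 to 94.3 CPM in the other 2 fibroblast-like clusters, and the mesothelial markers to 48.7 to 60.8 CPM, against 19.6 to 33.3 CPM. Their part in these differences was not tested.

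The genes whose pattern over the 30 class and pool sums was most like that of each tested gene are given as a description, since sums of a pool share a library and those of a class share its nuclei. For Aldh1a1 they were Sntg1, Il1rapl1 and Ugdh (Pearson r of log2 CPM 0.89, 0.89 and 0.84). For Aldh1a2 they were Adgrd1, Trpm6 and Gm36535 (0.91, 0.90 and 0.90), and for Aldh1a3 Sphk1, Bean1 and 2600014E21Rik (0.82, 0.79 and 0.77). For Cyp26b1 they were Rdx, Selp and Esr1 (0.83, 0.82 and 0.81), and for Rarb Lgr4, Optn and Aopep (0.88, 0.88 and 0.86). For Dhrs3 they were Dph5, Fkbp15 and Rnpep (0.96, 0.96 and 0.95), and the erythroid-like class, at 0 for Dhrs3, was among the sums. Among the tested genes themselves Aldh1a1 and Aldh1a2 were most alike (0.56), and Aldh1a2 and Rarb had an r of -0.11.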

How the data were processed

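Raw UMI counts per gene and nucleus, not normalized, were deposited by the authors in 3 matrices, made with Cell Ranger (versions 7.0.1 and 7.1.0 are named) on the build GRCm39, per the submitters' processing notes. Whether counting used strand is not given in the sources used here, so reads of a gene and an antisense partner may be mixed. Nuclei with at least 1000 UMIs and at most 5% mitochondrial UMIs were kept, and the highest Scrublet scores were left out at 0.8% per 1000 nuclei of a pool, since the automatic threshold marked 0, 194 and 4 nuclei. The remaining nuclei were clustered with scanpy 1.11.5 and leidenalg 0.10.2 in Python 3.11.15 (2000 variable genes, 30 components, 15 neighbours, resolution 1). Retinoid genes, a list of 12 cell cycle genes and EGFP took no part in the clustering. Other genes of dividing cells were not kept out. A cluster was named by at least 3 markers found in 10% of its nuclei at 2-fold the level elsewhere. A cluster that matched the endocardial markers best was counted as endothelial-like. A stricter naming rule was an alternative.

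Counts were summed per pool and class or cluster and tested with edgeR 4.0.16 in R 4.3.3 (quasi-likelihood test, TMM scaling, filterByExpr, pool as a block, Benjamini-Hochberg adjustment over all genes, threshold 0.05). The pool is a block because the classes of a pool come from 1 library. The fits held 14207 genes for classes, with Crabp1, Crabp2 and Stra6 under the filter, and 12972 for clusters, with Aldh1a3 also under it. DESeq2 1.42.0 was an alternative. On simulated counts for valve interstitial-like nuclei against the mean of the other classes, 69% of 200 genes changed 2-fold were recovered (13305 genes tested) and 89.5% of those changed 4-fold (13301 genes). The simulated classes were drawn from the same profile with a fixed spread and differed only in the changed genes. In the real counts 4158 of 14207 genes were called in this comparison, so the simulation does not give the power of the real test. All 9 genes are named, and of each list up to 4 called genes with the largest change per comparison. The genes and lists were chosen with earlier results of these data known, and the stricter naming rule, the fit without the erythroid-like class and the fibroblast-like pairs were added after seeing the data. Analysed UMIs per pool were 34053290, 17557338 and 18344733. Shares carry Wilson 95% intervals, and the limit for 0 counts is 3 counts.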

Additional observations from a re-analysis of the deposited data

How the results depend on the processing

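Of 63 calls of a gene in a comparison, with the 2 valve interstitial-like clusters counted as 1 comparison, 44 held under every alternative run and 19 were lost under at least 1. Calls between clusters of a class were rerun only with a pool left out, other size factors, DESeq2, no filter or no pool block. They were not rerun under the settings that named clusters anew. A missing adjusted p with the same sign counted as held. Levels moved by more than 1 SD in 27 of 90 cases with doublets kept (21 higher, 6 lower) and in 19 of 90 at resolution 0.5 (12 higher, 7 lower). Shares of nuclei moved by more than 1 SD in 66 of 90 cases without thinning. All of these were higher, a direction fixed in advance because thinning only removes UMIs. With doublets kept, 25 of 90 shares moved by more than 1 SD (23 higher, 2 lower). Clusters were named anew under these settings, so a class name can cover other nuclei. At resolution 0.5, the macrophage-like class grew from 247 to 488 nuclei, 239 of them from the unnamed cluster, and the cardiomyocyte-like class took in 627 nuclei of the Igfbp2-led smooth muscle-like cluster. Counts of genes called stayed within 1.5 times the main count in 216 of 238 cases, and the exceptions follow. The share of all genes called is given beside them only for the fit without the erythroid-like class, so these counts describe and support nothing. In cardiomyocyte-like nuclei 2 genes became 5 by DESeq2 and 4 without the erythroid-like class, where the share of all genes called went from 51.4% to 64.6%. In lymphatic endothelial-like nuclei 2 became 1 at a minimum of 500 UMIs and 0 with doublets kept. There 2 became 4 without the erythroid-like class, where the share of all genes called went from 18.8% to 21.7%. In pericyte-like nuclei 1 became 2 with doublets kept and 0 to 1 when 1 pool was left out. In smooth muscle-like nuclei 1 became 2 by DESeq2, at a limit of 10% mitochondrial UMIs, with doublets kept, at resolution 0.5, with stricter names and without the lymphatic class, and 1 to 2 when 1 pool was left out. Calls in smooth muscle-like clusters went from 5 to 3 by DESeq2 and to 2 to 4 when 1 pool was left out, and in macrophage-like nuclei from 3 to 1 to 2.

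Single values that changed sign were these. Dhrs3 against the mean of the other classes was 0.42 in cardiomyocyte-like nuclei and became -0.31 by DESeq2, -0.29 with doublets kept, -0.38 at 500 UMIs and -0.59 without the erythroid-like class. In valve interstitial-like nuclei it was 0.65 and became -0.10, -0.28, -0.20 and -0.38 under the same settings. Rarb in lymphatic endothelial-like nuclei was -0.47 and became 0.17 with doublets kept. Aldh1a1 in macrophage-like nuclei was -1.67 and became 0.28 at resolution 0.5. Rarb in macrophage-like nuclei was -0.76 and became 0.059 at 10% mitochondrial UMIs and 0.67 at resolution 0.5. Values of Cyp26b1 against the mean of the other classes depend on the prior count, since classes were at 0, and show only this dependence. In fibroblast-like nuclei the value was -1.38 and became 0.21 at 10% mitochondrial UMIs, and in cardiomyocyte-like nuclei it was -0.96 and ranged from -1.93 to 0.55 when 1 pool was left out. The cause was not tested.

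Without the pool block, calls over the endothelial-like clusters went from 9 to 7 and over the smooth muscle-like clusters from 5 to 4, and the other counts were the same. The share of all genes called in that fit is not given. Few UMIs, at most 157 each, limit the precision of Crabp1, Crabp2, Stra6 and Aldh1a3, whose levels over all analysed nuclei were at most 2.51 CPM in any pool.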
